A study of Mus musculus with 28 samples.

Results

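The NMN effect on the liver transcriptome that was shared by the 2 gavage schedules was measured in 14 liver libraries, out of 28 liver and kidney libraries in the series. These were all the liver libraries, 7 from mice gavaged with nicotinamide mononucleotide (NMN) and 7 from mice gavaged with water, fitted together with the schedule as a block. All were male mice, C57BL/6 by the labels and C57BL6J by the study's methods, 8 weeks of age, gavaged for 7 days. In the 1340 mg/kg/d schedule 4 mice received NMN and 4 received water, and in the 2680 mg/kg/d schedule 3 received NMN and 3 received water. The water mice were gavaged as many times per day as the NMN mice of their schedule, 1 or 2 times. The schedules differed in the daily dose and in the number of gavages, and each had its own water mice and its own libraries, so these differences cannot be told apart. No allele or transgene is named for any group, and the labels do not tie livers to kidneys or NMN mice to water mice. The 14 kidney libraries, from the same design, were used only for the comparison of the organs.

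NMN is an intermediate of NAD+ synthesis that is made from nicotinamide by Nampt and turned into NAD+ by the Nmnat enzymes. NAD+ carries electrons in fuel oxidation and is consumed by sirtuins, PARPs and related enzymes. In the liver, the balance between burning and making fat is set in part by transcription. PPAR-alpha, a nuclear receptor active in fasting, turns on the Cyp4a omega-hydroxylases and the peroxisomal and mitochondrial oxidation of fatty acids. Srebf1 and the carbohydrate response factor turn on the enzymes that build fatty acids from citrate, such as Acly, Acaca, Fasn and Scd1.

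The 8 livers of mice gavaged at 1340 mg/kg/d gave 12688324 to 16455228 reads on genes per library, and the 6 at 2680 mg/kg/d gave 17573184 to 20635269. Expression is given as CPM, the read counts per 1000000 counted reads after scaling between libraries, and differences as log2 fold changes of NMN over water. Albumin (Alb) stood at 90670 CPM on average, and the 7 hepatocyte markers measured summed to at least 90154 CPM in every library. Against the label, transcripts of kidney were present in part of the liver libraries. For Kap in the next sentences, CPM is per 1000000 counted reads without the scaling between libraries. Kap, a protein of kidney proximal tubules, reached 23.3 to 38.3 CPM in all 8 livers at 1340 mg/kg/d, which was 0.119% to 0.196% of its mean kidney level in that schedule. At 2680 mg/kg/d it reached 22.8 CPM (0.124%) in NMN replicate 1 and 5.77 CPM (0.0313%) in water replicate 2, and at most 0.0059% in the other 4 libraries. Umod and the sodium transporters Slc12a1 and Slc34a1 followed the same libraries. The kidney reads expected at these shares came to at most 2.89% of the difference between NMN and water for each of the 573 genes called below. NMN replicate 4 of the 1340 mg/kg/d schedule stood apart in another way: 14.4% of its reads lay outside annotated exons, against at most 8.27% in the other 13 liver libraries.

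**Figure D1:**
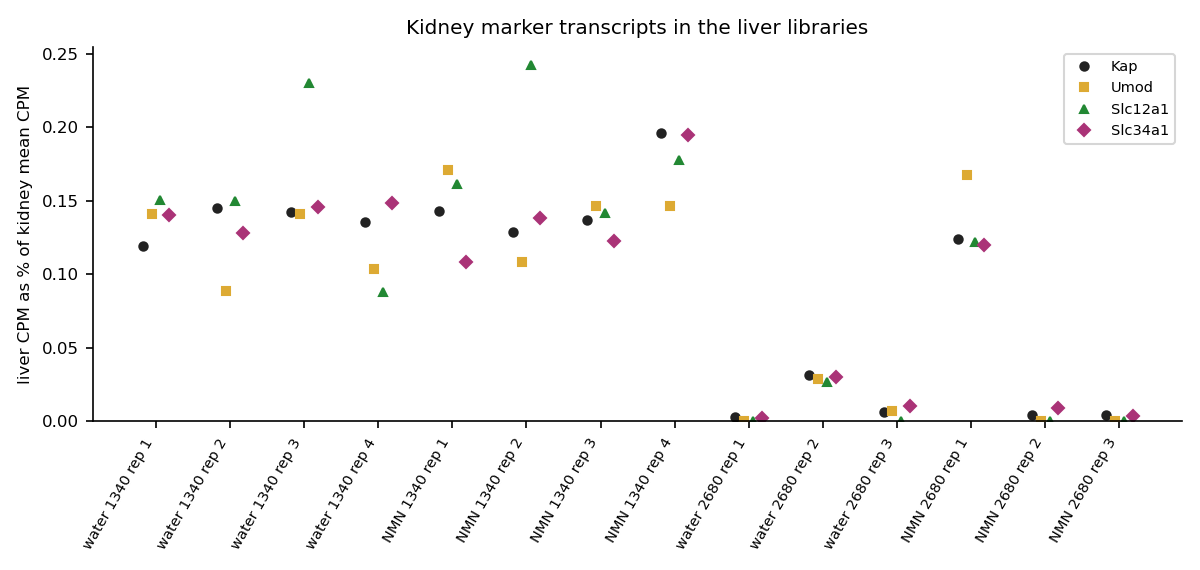
Level of 4 kidney genes in each of the 14 liver libraries, as a percentage of the mean CPM in the 8 (1340 mg/kg/d) or 6 (2680 mg/kg/d) kidney libraries of the same schedule, on a linear axis from 0. Each point is 1 gene in 1 library, and the 8 livers of the 1340 mg/kg/d schedule and NMN replicate 1 of the 2680 mg/kg/d schedule stand above the rest.

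In the liver, 573 of 13412 tested genes (4.27%) differed between NMN and water at an adjusted p under 0.05, 275 of them higher (2.05% of the tested genes) and 298 lower (2.22%) with NMN. A fold change over 2 or under 0.5 was reached as well by 129 of them (0.962% of the tested genes), 64 higher and 65 lower. The median log2 fold change was 0.70 among the genes that rose and -0.65 among those that fell, while the median over all tested genes was 0.0059. Of the 573 genes, 548 were protein coding. The biological coefficient of variation between mice was 25.7%. All 573 had the same direction in both schedules, as 8956 (66.8%) of all tested genes did; a fit of a common effect favours such genes, so this follows in part from the choice. The log2 fold changes of the schedules, which share no mice, correlated with r = 0.37 over all tested genes, as a description, since genes are not independent. In 159 of the 573 genes (27.7%) no NMN mouse overlapped a water mouse of its schedule, 79 of them higher and 80 lower, against 206 of all tested genes (1.54%). The differences were usually larger at 2680 mg/kg/d, with a median size of 0.90 against 0.49 at 1340 mg/kg/d among the 573 genes, and 0.33 against 0.18 over all tested genes. In bulk tissue, fewer cells of a type and less RNA per cell cannot be told apart.

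The number of genes depended on single libraries. Each mouse is named below by its treatment, replicate number and schedule. The number fell to 177 without water replicate 2 and to 179 without NMN replicate 3 of the 2680 mg/kg/d schedule, to 209 and 249 without the water replicates 1 and 3, and to 354 and 331 without the NMN replicates 1 and 2. At 1340 mg/kg/d it fell to 300 without NMN replicate 2, and it rose to 1118 without NMN replicate 1 and to 1094 without water replicate 3. Without NMN replicate 4, the library with many reads outside exons, 446 genes passed.

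**Figure D2:**
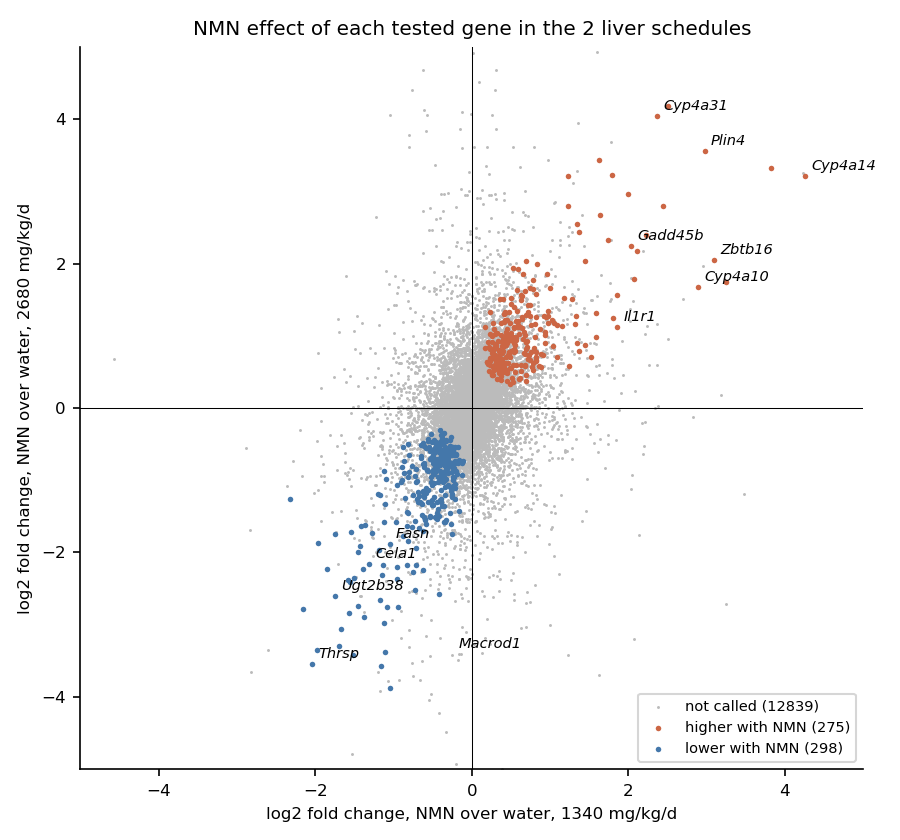
Log2 fold change of NMN over water for each of the 13412 tested genes at 1340 mg/kg/d (horizontal) and 2680 mg/kg/d (vertical), with 13 genes beyond the axes. Orange and blue points are the 275 genes higher and the 298 lower with NMN in the fit over both schedules, which lie at the upper right and the lower left.

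The gene with the largest rise among those with the smallest p was Plin4 (ENSMUSG00000002831.13), a coat protein of lipid droplets. It stood at 1.24, 0.717, 1.3 and 2.91 CPM in the 4 water mice and 6.24, 20.9, 13.4 and 8.2 CPM in the 4 NMN mice of the 1340 mg/kg/d schedule, and 0.96, 1.32 and 0.546 CPM in the 3 water mice and 5.88, 13.2 and 14.8 CPM in the 3 NMN mice of the 2680 mg/kg/d schedule. The 7 NMN mice were all higher than the 7 water mice. The log2 fold change was 3.22 (SE 0.36, adjusted p = 0.000429). Plin4 shares exon positions with Hdgfl2 on the annotation, and the counting ignored strand, so a part of its reads is uncertain. Il1r1 (ENSMUSG00000026072.12), the receptor through which interleukin-1 signals, stood at 22.3, 24.0, 28.5 and 43.1 CPM with water and 83.9, 143, 116 and 84.9 CPM with NMN at 1340 mg/kg/d, and 33.2, 23.6 and 33.4 CPM with water and 54.2, 77.4 and 64.9 CPM with NMN at 2680 mg/kg/d. The groups did not overlap, and the highest values were those of the NMN mice at 1340 mg/kg/d. It rose by 1.54 log2 units (SE 0.19, adjusted p = 0.0011).

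Tmem98 (ENSMUSG00000035413.8), a membrane protein, was the gene with the smallest p. Its level was 4.19, 3.65, 4.39 and 4.03 CPM with water and 9.47, 7.34, 8.47 and 9.23 CPM with NMN at 1340 mg/kg/d, and 8.21, 6.7 and 6.07 CPM with water and 15.1, 16.4 and 15.1 CPM with NMN at 2680 mg/kg/d. Water replicate 1 at 2680 mg/kg/d lay above NMN replicate 2 of the other schedule, but within each schedule the groups were apart. It rose by 1.11 log2 units (SE 0.13, adjusted p = 0.000429). Tmc7, a transmembrane channel-like protein, rose by 1.99 log2 units (SE 0.24, adjusted p = 0.000429), from 2.33 ± 0.544 to 7.83 ± 3.34 CPM (SD, n = 4 and 4) at 1340 mg/kg/d and from 1.56 ± 0.239 to 7.84 ± 1.89 CPM (SD, n = 3 and 3) at 2680 mg/kg/d. Fbf1, a protein of the base of the cilium, rose by 1.47 log2 units (SE 0.20, adjusted p = 0.0015). Tacc2, a centrosomal coiled-coil protein, rose by 1.15 log2 units (SE 0.17, adjusted p = 0.0024). Megf9, a membrane protein with EGF-like repeats, rose by 1.11 log2 units (SE 0.16, adjusted p = 0.0024). Abcc3, which exports bile acids and glucuronides from the hepatocyte into blood, rose from 155 ± 18.5 to 263 ± 33.98 CPM (SD, n = 4 and 4) at 1340 mg/kg/d and from 162 ± 36.5 to 359 ± 113 CPM (SD, n = 3 and 3) at 2680 mg/kg/d, a log2 fold change of 0.93 (SE 0.14, adjusted p = 0.00295).

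Among the genes that fell, Ddo (ENSMUSG00000063428.8), the peroxisomal oxidase of D-aspartate, stood at 14.9, 11.9, 18.4 and 15.5 CPM with water and 8.88, 8.48, 8.47 and 8.27 CPM with NMN at 1340 mg/kg/d, and 17.1, 19.4 and 16.5 CPM with water and 7.45, 6.82 and 5.17 CPM with NMN at 2680 mg/kg/d. The NMN mice of both schedules lay under all 7 water mice. It fell by 1.09 on the log2 scale (SE 0.15, adjusted p = 0.00122). Lect2 (ENSMUSG00000021539.9), a protein that hepatocytes secrete, stood at 126, 111, 109 and 105 CPM with water and 81.7, 76.1, 60.5 and 71.02 CPM with NMN at 1340 mg/kg/d, and 163, 149.6 and 135 CPM with water and 49.01, 53.4 and 58.6 CPM with NMN at 2680 mg/kg/d. Here too the 7 NMN mice lay under the 7 water mice, and the lowest values were those at 2680 mg/kg/d. The log2 fold change was -0.998 (SE 0.13, adjusted p = 0.00122). Cela1, an elastase, fell from 28.6 ± 7.97 to 11.5 ± 4.87 CPM (SD, n = 4 and 4) at 1340 mg/kg/d and from 22.6 ± 2.34 to 5.03 ± 1.38 CPM (SD, n = 3 and 3) at 2680 mg/kg/d, a log2 fold change of -1.67 (SE 0.23, adjusted p = 0.00206).

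Gstp3, a glutathione transferase of the pi class with close paralogs, stood at 10.2, 13.8, 10.1 and 13.5 CPM with water and 6.75, 4.81, 7.21 and 5.71 CPM with NMN at 1340 mg/kg/d, and 13.3, 15.2 and 11.3 CPM with water and 2.18, 3.34 and 2.18 CPM with NMN at 2680 mg/kg/d. No NMN mouse reached a water mouse, and its log2 fold change was -1.55 (SE 0.23, adjusted p = 0.0024). Slc23a1, the sodium-coupled transporter of vitamin C, fell from 47.6 ± 6.36 to 29.9 ± 7.33 CPM (SD, n = 4 and 4) at 1340 mg/kg/d and from 58.3 ± 4.39 to 18.5 ± 1.85 CPM (SD, n = 3 and 3) at 2680 mg/kg/d, a log2 fold change of -1.09 (SE 0.17, adjusted p = 0.00328). Map2k3, a kinase upstream of p38, changed by -0.66 log2 units (SE 0.10, adjusted p = 0.00328). Cutal changed by -0.80 log2 units (SE 0.13, adjusted p = 0.00466) and the Toll-like receptor Tlr12 by -1.51 log2 units (SE 0.25, adjusted p = 0.00473). These 8 rising and 8 falling genes rank first by p among the 157 called genes with at least 1 CPM and no overlap. Predicted genes were passed over. The 8 and 8 genes kept their direction and passed the test with each of the 14 libraries left out, with an adjusted p of at most 0.0144. They were chosen on the same libraries for a small p and no overlap, so this follows in large part from the choice.

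**Figure D3:**
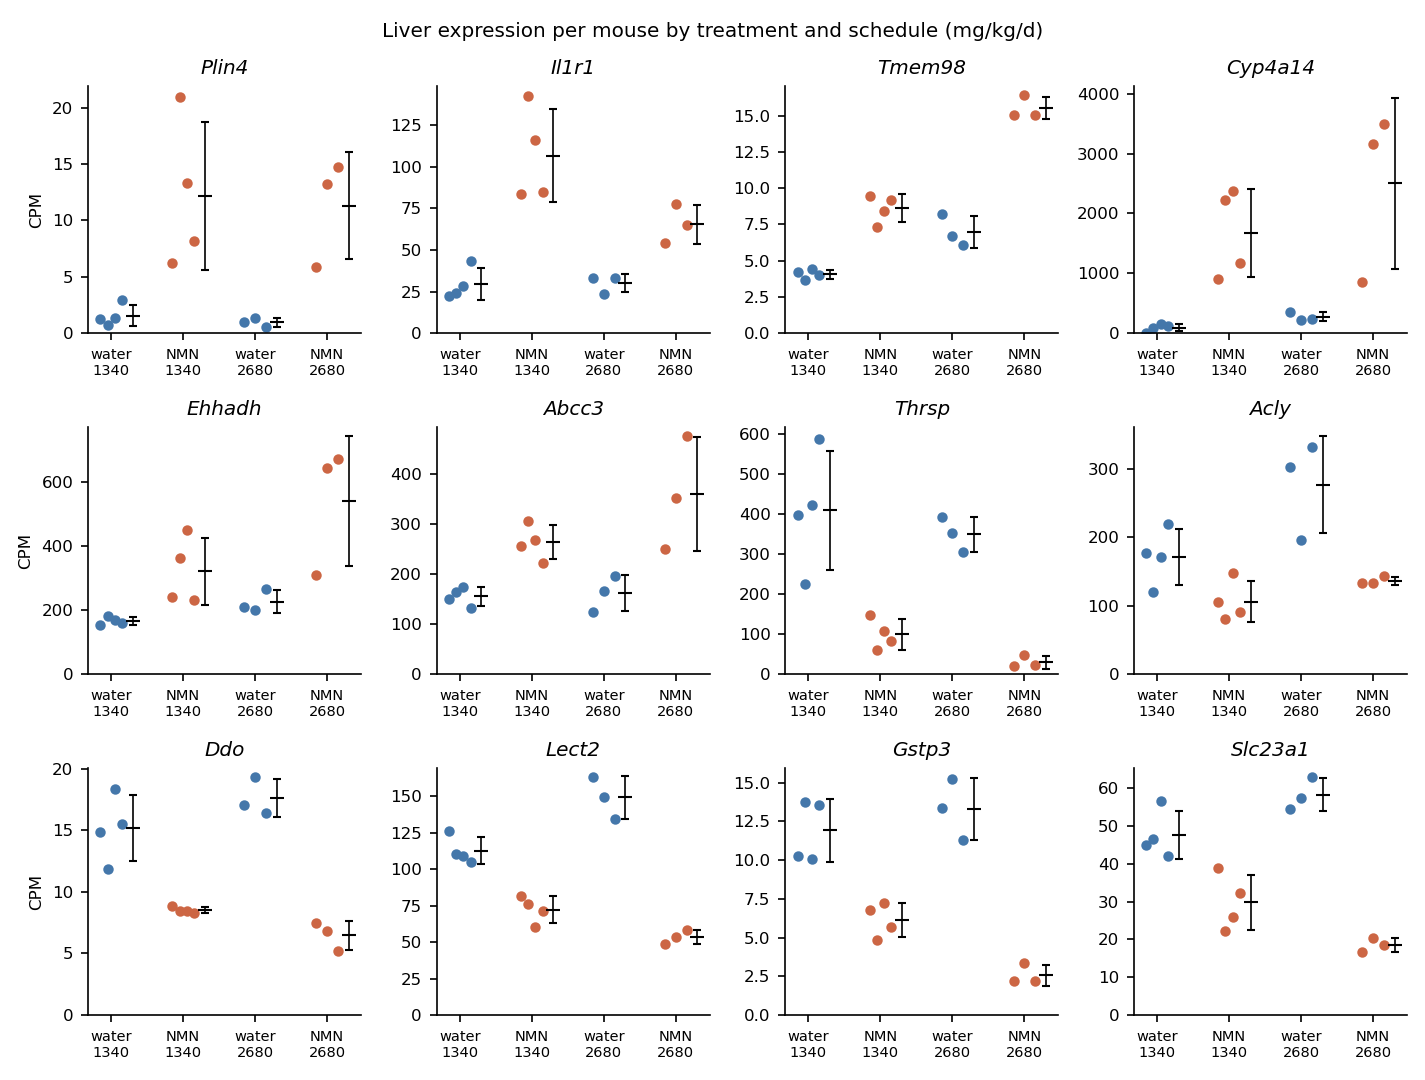
CPM of 12 genes in each liver, with NMN mice in orange and water mice in blue, and with the mean and SD of each group beside the points in black, on linear axes from 0. In Plin4, Il1r1, Tmem98, Cyp4a14, Ehhadh and Abcc3 the NMN mice lie above the water mice of their schedule, and in Thrsp, Ddo, Lect2, Gstp3 and Slc23a1 below, while in Acly 1 NMN mouse at 1340 mg/kg/d lies within the range of the water mice.

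The hepatic genes of fat oxidation were described from lists of known members. In the 25 pathway lists, 36 of the 501 different genes tested rose and 34 fell, beside 2.05% and 2.22% of all tested genes. Beyond the 2 members of each list with the smallest p, the members named are those that passed and a few well-known enzymes, chosen after their values were seen. Of the 9 genes of omega hydroxylation, the first step of fatty acid breakdown in the endoplasmic reticulum, 3 rose and 1 fell. The median log2 fold change was 0.20, with 0.22 at 1340 mg/kg/d and -0.016 at 2680 mg/kg/d. The 3 that rose were Cyp4a genes. Cyp4a14 stood at 6.82, 81.5, 146 and 115 CPM with water and 907, 2223, 2381 and 1173 CPM with NMN at 1340 mg/kg/d, and 357, 219 and 232 CPM with water and 858, 3156 and 3492 CPM with NMN at 2680 mg/kg/d. All NMN mice lay far above all water mice, and water replicate 1 of the 1340 mg/kg/d schedule lay far under the other water mice. Its log2 fold change was 3.81 (SE 0.61, adjusted p = 0.00898). Cyp4a10 rose from 136 ± 64.6 to 1014 ± 343 CPM (SD, n = 4 and 4) at 1340 mg/kg/d and from 379.9 ± 129 to 1215 ± 589 CPM (SD, n = 3 and 3) at 2680 mg/kg/d, by 2.37 log2 units (SE 0.38, adjusted p = 0.00846). Cyp4a31 rose from 5.59 ± 2.71 to 28.98 ± 10.6 CPM (SD, n = 4 and 4) at 1340 mg/kg/d and from 6.75 ± 2.49 to 111 ± 48.7 CPM (SD, n = 3 and 3) at 2680 mg/kg/d, by 3.11 log2 units (SE 0.41, adjusted p = 0.00437). Cyp4a10, Cyp4a31 and Cyp4a32 are near-identical copies between which reads can be split wrongly, so the share of each is uncertain; Cyp4a32 stood at 0.48 log2 units (SE 0.23, adjusted p = 0.237). Cyp4f14, which hydroxylates other substrates such as leukotrienes, fell by 0.80 log2 units (SE 0.14, adjusted p = 0.00575).

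Of 26 genes of peroxisomal fatty acid oxidation, 4 rose and 1 fell, with a median log2 fold change of 0.16. That median ran from 0.08 to 0.22 with 1 library left out, and was 0.049 without both NMN replicates 1 and 2 at 1340 mg/kg/d. Ehhadh, the bifunctional enzyme of the pathway, stood at 153, 183, 169.7 and 161 CPM with water and 242, 362, 449.9 and 231 CPM with NMN at 1340 mg/kg/d, and 211, 201 and 267 CPM with water and 309, 644 and 673 CPM with NMN at 2680 mg/kg/d. The NMN mice lay above the water mice of their schedule, with NMN replicate 1 at 2680 mg/kg/d nearest to them. It rose by 1.08 log2 units (SE 0.18, adjusted p = 0.00575). Pex11a, which drives peroxisome division, rose by 0.80 log2 units (SE 0.16, adjusted p = 0.0125), although NMN replicate 1 at 2680 mg/kg/d, at 41.05 CPM, lay under the 3 water mice of its schedule (45.5 to 49.6 CPM). The isomerase Eci2 rose by 0.71 log2 units (SE 0.18, adjusted p = 0.0391). Nudt7, a peroxisomal hydrolase of coenzyme A that also appears in the lists of NAD use and male-biased genes, fell from 707 ± 164 to 453 ± 108 CPM (SD, n = 4 and 4) at 1340 mg/kg/d and from 648 ± 132 to 257 ± 86.5 CPM (SD, n = 3 and 3) at 2680 mg/kg/d, a log2 fold change of -0.94 (SE 0.19, adjusted p = 0.0151). The number that passed was 3 without NMN replicate 3 at 1340 mg/kg/d, or water replicate 1 or 2 or NMN replicate 2 or 3 at 2680 mg/kg/d.

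Of 23 genes of mitochondrial fatty acid oxidation, 2 rose and none fell, with a median log2 fold change of 0.21 and 16 members higher in both schedules. Slc22a5, the carnitine transporter, rose from 16.6 ± 3.74 to 33.2 ± 6.61 CPM (SD, n = 4 and 4) at 1340 mg/kg/d and from 8.28 ± 2.39 to 26.2 ± 12.5 CPM (SD, n = 3 and 3) at 2680 mg/kg/d, by 1.28 log2 units (SE 0.23, adjusted p = 0.00846). Acot2, a thioesterase nearly identical to Acot1, rose by 1.16 log2 units (SE 0.31, adjusted p = 0.0453) and reached an adjusted p of 0.0977 without NMN replicate 2 at 2680 mg/kg/d. In NMN replicate 1 of that schedule Acot2 stood at 1.32 CPM, under the water mice (at least 1.55 CPM). Leaving out single libraries gave counts of 1 without water replicate 1 or NMN replicate 2 or 3 at 1340 mg/kg/d, or water replicate 1, 2 or 3 or NMN replicate 2 or 3 at 2680 mg/kg/d. Cpt1a, the carnitine acyltransferase that admits fatty acids to mitochondria, stood at 0.43 (SE 0.16, adjusted p = 0.129). Of 6 genes of ketone body synthesis none passed the edgeR test, and neither did any by an unadjusted p under 0.05 or by DESeq2, which 21.9% and 8.87% of all tested genes did. The median log2 fold change was -0.13, with 0.15 at 1340 mg/kg/d and -0.45 at 2680 mg/kg/d, and 1 member had the same direction in both. The dehydrogenase Bdh1 stood at -0.25 log2 units (SE 0.16).

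Of 24 other targets of PPAR-alpha known from fasting, 6 rose and none fell, with a median log2 fold change of 0.61. In 21 of them the fold change was above 0 in both schedules. Besides Plin4 these were Aldh3a2, the fatty aldehyde dehydrogenase, with 0.83 log2 units (SE 0.16, adjusted p = 0.00846), and 4 others. The retinol saturase Retsat rose by 1.31 log2 units (SE 0.26, adjusted p = 0.0159). The thioesterase Acot1 rose by 1.74 log2 units (SE 0.38, adjusted p = 0.0285). The pantetheinase Vnn1, which releases cysteamine, rose by 1.17 log2 units (SE 0.27, adjusted p = 0.0292). The phosphatidate phosphatase Lpin2 rose by 1.26 log2 units (SE 0.30, adjusted p = 0.0388). Fgf21, the fasting hormone of the liver, stood at 1.75 log2 units (SE 0.66, adjusted p = 0.133) and did not pass. The count of calls was 3 without NMN replicate 2 at 1340 mg/kg/d, or water replicate 1 or 3 or NMN replicate 2 or 3 at 2680 mg/kg/d.

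Of 25 genes of fatty acid synthesis 10 fell and none rose, the median log2 fold change was -0.38, and 19 were lower in both schedules. Thrsp, which promotes the transcription and activity of the lipogenic enzymes, stood at 398, 225, 424 and 589 CPM with water and 148, 59.3, 109 and 81.6 CPM with NMN at 1340 mg/kg/d, and 392, 353 and 305 CPM with water and 19.3, 48.6 and 21.9 CPM with NMN at 2680 mg/kg/d. No NMN mouse reached the lowest water mouse, and the lowest values were those at 2680 mg/kg/d. It fell by 2.68 log2 units (SE 0.37, adjusted p = 0.00473). Acly, which splits citrate to cytosolic acetyl-CoA, fell from 171 ± 40.8 to 106 ± 29.6 CPM (SD, n = 4 and 4) at 1340 mg/kg/d and from 277 ± 70.99 to 137 ± 5.85 CPM (SD, n = 3 and 3) at 2680 mg/kg/d, a log2 fold change of -0.83 (SE 0.16, adjusted p = 0.00846).

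Fasn, the fatty acid synthase, stood at 448, 341, 419.8 and 681 CPM with water and 253, 158, 357 and 144 CPM with NMN at 1340 mg/kg/d, and 753, 772 and 707 CPM with water and 197, 281 and 124 CPM with NMN at 2680 mg/kg/d. At 2680 mg/kg/d the groups were apart, and at 1340 mg/kg/d they overlapped through NMN replicate 3 and water replicate 2. Its log2 fold change was -1.41 (SE 0.26, adjusted p = 0.012). Scd1, the delta-9 desaturase, had the highest level of the list and stood at 1856, 4307, 3869 and 3284 CPM with water and 2382, 1793, 2783 and 1565 CPM with NMN at 1340 mg/kg/d, and 8357, 5668 and 9317 CPM with water and 3497, 2617 and 3234 CPM with NMN at 2680 mg/kg/d. At 1340 mg/kg/d the lowest water mouse, replicate 1, lay within the NMN mice, and at 2680 mg/kg/d the groups were apart. It changed by -0.93 log2 units (SE 0.20, adjusted p = 0.0215), with close paralogs in the genome. Srebf1, the factor that turns the pathway on, changed by -0.87 log2 units (SE 0.17, adjusted p = 0.0125). Nr1h3 (LXR-alpha), which turns on Srebf1, changed by -0.38 log2 units (SE 0.10, adjusted p = 0.0351). The carboxylase Acaca changed by -0.53 log2 units (SE 0.15, adjusted p = 0.0492), and its activator Mid1ip1 by -1.01 log2 units (SE 0.20, adjusted p = 0.0146). The elongase Elovl6 changed by -0.85 log2 units (SE 0.20, adjusted p = 0.0276). Pgd, which supplies NADPH, changed by -0.57 log2 units (SE 0.15, adjusted p = 0.0345). Among the genes named from the lists of pathways and cell types, exon positions are also shared with another gene by Eci2, Bdh1, Retsat, Srebf1, Nr1h3, Mid1ip1, Elovl6, Foxo1, Il6ra, Parp1, Ephx1, Cyp2c55, Cyp2f2, Pdia4, Hamp2, Ahsg, Cela2a, Umod and Slc34a1. Calls in the list numbered 5 without NMN replicate 3 at 2680 mg/kg/d, and 6 without NMN replicate 2 at 1340 mg/kg/d, or water replicate 1 or 2 at 2680 mg/kg/d.

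Of 25 genes of cholesterol synthesis none passed the edgeR test, although the median log2 fold change was -0.34; 8 had an unadjusted p under 0.05, all of them lower, and DESeq2 called 3. Of all tested genes 21.9% had such a p, lower genes alone made up 10.7%, and DESeq2 called 8.87%. The 2 with the smallest p were Stard4, a sterol carrier, at -0.55 log2 units (SE 0.15) and Sc5d, a late enzyme of the pathway, at -0.35 log2 units (SE 0.12). The number that passed was 1 without water replicate 1 at 1340 mg/kg/d, or water replicate 1 at 2680 mg/kg/d, and 2 without NMN replicate 1 at 1340 mg/kg/d. Of 24 genes of lipoproteins and lipases 2 fell and none rose, with a median log2 fold change of -0.03. Apoc3, an apolipoprotein that slows the clearance of triglyceride-rich particles, fell from 1989.6 ± 305 to 1424 ± 199 CPM (SD, n = 4 and 4) at 1340 mg/kg/d and from 1793 ± 251 to 1322 ± 214 CPM (SD, n = 3 and 3) at 2680 mg/kg/d, a log2 fold change of -0.46 (SE 0.11, adjusted p = 0.0264). The hepatic lipase Lipc changed by -0.84 log2 units (SE 0.20, adjusted p = 0.0288). Leaving out single libraries gave counts of 0 without water replicate 1 or 2 or NMN replicate 3 at 2680 mg/kg/d, and 1 without water replicate 3 or NMN replicate 2 at 2680 mg/kg/d.

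Of 18 genes of glucose use and gluconeogenesis 3 fell and none rose, with a median log2 fold change of -0.26. That median was -0.17 at 1340 mg/kg/d and -0.56 at 2680 mg/kg/d. Fbp1, which returns fructose bisphosphate to glucose, changed by -0.43 log2 units (SE 0.11, adjusted p = 0.0313). The fructose kinase Khk changed by -0.64 log2 units (SE 0.17, adjusted p = 0.0407), and the liver glycogen phosphorylase Pygl by -0.48 log2 units (SE 0.13, adjusted p = 0.0477). At 1340 mg/kg/d Fbp1 stood at only -0.18 (SE 0.11) and Khk at -0.26 (SE 0.17), and for each the groups overlapped. At 2680 mg/kg/d they stood at -0.76 (SE 0.13) and -1.15 (SE 0.20). The count of calls was 0 without water replicate 4 at 1340 mg/kg/d, or water replicate 1, 2 or 3 or NMN replicate 2 or 3 at 2680 mg/kg/d, and 1 without NMN replicate 2 or 4 at 1340 mg/kg/d, or NMN replicate 1 at 2680 mg/kg/d. Of 18 genes of insulin and FoxO signalling 2 rose and 1 fell. Foxo1, the factor that insulin excludes from the nucleus, rose by 0.53 log2 units (SE 0.15, adjusted p = 0.0469). At 1340 mg/kg/d it was high in NMN replicates 1 and 2 (67.4 and 68.5 CPM), the livers with the highest neutrophil markers, while replicates 3 and 4 (41.2 and 39.5 CPM) lay within the water mice (34.9 to 42.1 CPM). Without both of the former it stood at 0.34 log2 units (SE 0.14, adjusted p = 0.158). Igfbp2, a binding protein of the insulin-like growth factors, rose by 1.03 log2 units (SE 0.27, adjusted p = 0.0489). Cited2, a transcriptional coregulator, changed by -0.73 log2 units (SE 0.20, adjusted p = 0.04996). Calls in the list numbered 0 without NMN replicate 2 at 1340 mg/kg/d, or water replicate 1, 2 or 3 or NMN replicate 1 or 3 at 2680 mg/kg/d, and 1 without water replicate 1 or NMN replicate 1 at 1340 mg/kg/d, or NMN replicate 2 at 2680 mg/kg/d.

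Of 28 genes of interleukin receptors and the acute phase response 3 rose and none fell. The median log2 fold change was -0.07, with 0.12 at 1340 mg/kg/d and -0.25 at 2680 mg/kg/d. The 3 that rose were a receptor for interleukin-1, a receptor for interleukin-6 and the factor that interleukin-6 activates. Il6ra stood at 22.9, 53.9, 44.3 and 53.8 CPM with water and 78.8, 103, 97.96 and 63.4 CPM with NMN at 1340 mg/kg/d, and 16.4, 33.7 and 35.5 CPM with water and 55.3, 70.9 and 90.4 CPM with NMN at 2680 mg/kg/d. The NMN mice were higher than the water mice of their schedule throughout, by 1.13 log2 units (SE 0.22, adjusted p = 0.0114). Stat3 rose from 99.4 ± 26.5 to 151 ± 9.92 CPM (SD, n = 4 and 4) at 1340 mg/kg/d and from 80.9 ± 14.97 to 107 ± 9.63 CPM (SD, n = 3 and 3) at 2680 mg/kg/d, by 0.52 log2 units (SE 0.12, adjusted p = 0.0264); it shares exon positions with Stat5a. The acute phase proteins Saa1 and Saa2 did not pass, with log2 fold changes of -1.93 (SE 1.0) and -3.18 log2 units (SE 1.25). From 2 to 4 members passed with 1 library left out.

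Of 16 genes that respond to glucocorticoids 2 rose and none fell, with a median log2 fold change of 0.45. The median was 0.58 at 1340 mg/kg/d and 0.18 at 2680 mg/kg/d. Without both NMN replicates 1 and 2 at 1340 mg/kg/d it was 0.15. Zbtb16, a zinc finger factor, stood at 3.72, 1.63, 3.16 and 3.63 CPM with water and 11.2, 34.3, 46.2 and 12.2 CPM with NMN at 1340 mg/kg/d, and 4.85, 1.16 and 4.61 CPM with water and 11.05, 24.3 and 8.6 CPM with NMN at 2680 mg/kg/d. No overlap occurred within a schedule, but at 1340 mg/kg/d the NMN replicates 2 and 3 lay far above the replicates 1 and 4. It rose by 2.64 log2 units (SE 0.46, adjusted p = 0.00977). Fkbp5, a chaperone partner of the glucocorticoid receptor, stood at 30.7, 72.3, 45.97 and 52.4 CPM with water and 142, 169, 133 and 107 CPM with NMN at 1340 mg/kg/d, and 23.3, 47.3 and 25.5 CPM with water and 37.6, 82.1 and 57.1 CPM with NMN at 2680 mg/kg/d. At 2680 mg/kg/d NMN replicate 1 lay under water replicate 2, and at 1340 mg/kg/d the groups were apart. It rose by 1.21 log2 units (SE 0.23, adjusted p = 0.0127). These 2 passed with each library left out. With the replicate number as a block Zbtb16 did not pass (adjusted p = 0.0574). Fkbp5 did not pass under 1 other alternative (adjusted p = 0.0668). Of 19 clock genes none passed by edgeR, 4 had an unadjusted p under 0.05 (21.9% of all tested genes did) and DESeq2 called 2 (8.87% of all); Clock stood at 0.54 log2 units (SE 0.17). The number that passed was 1 without water replicate 2 or NMN replicate 1 or 4 at 1340 mg/kg/d, or NMN replicate 2 at 2680 mg/kg/d.

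Male and female mice differ in many liver genes through the pulses of growth hormone. Of 23 genes known to be higher in males, 4 fell and none rose, and all 23 had a log2 fold change below 0, 17 of them in both schedules, with a median log2 fold change of -0.45. Besides Nudt7 these were Ugt2b38, a glucuronosyltransferase with near-identical copies, with -2.06 log2 units (SE 0.44, adjusted p = 0.0234), and 2 others. The steroid dehydrogenase Hsd3b5 had -1.34 log2 units (SE 0.30, adjusted p = 0.0295), and the adipokine Serpina12 had -2.36 log2 units (SE 0.55, adjusted p = 0.0387). Leaving out single libraries gave counts of 1 without water replicate 1 or 2 at 2680 mg/kg/d, and 2 without NMN replicate 2 at 1340 mg/kg/d, or water replicate 3 or NMN replicate 2 or 3 at 2680 mg/kg/d, and 7 without water replicate 3 or NMN replicate 1 at 1340 mg/kg/d. Of 15 genes known to be higher in females none passed by edgeR, 6 had an unadjusted p under 0.05 (21.9% of all tested genes did) and DESeq2 called 5 (8.87% of all), with a median log2 fold change of 0.18. The sign of that median was not stable. It was 0.16 at 1340 mg/kg/d and -0.24 at 2680 mg/kg/d, and ran from -0.027 to 0.25 with 1 library left out. Without NMN replicates 1 and 2 at 1340 mg/kg/d it was -0.10. Cyp17a1 stood at -1.14 log2 units (SE 0.32) and Cyp2c69 at -2.46 log2 units (SE 0.77). The count of calls was 1 without water replicate 1 or 3 or NMN replicate 4 at 1340 mg/kg/d, or NMN replicate 1 at 2680 mg/kg/d, and 2 without NMN replicate 1 at 1340 mg/kg/d.

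Of 13 genes of growth hormone signalling and its liver factors, Hnf4a, a master factor of the hepatocyte, rose from 525 ± 58.4 to 839 ± 101 CPM (SD, n = 4 and 4) at 1340 mg/kg/d and from 562 ± 46.7 to 841 ± 191 CPM (SD, n = 3 and 3) at 2680 mg/kg/d, by 0.64 log2 units (SE 0.11, adjusted p = 0.00505). Igfals, which holds insulin-like growth factor in serum, fell by 0.91 log2 units (SE 0.19, adjusted p = 0.0146). These 2 passed with each library left out, while Igfals did not pass under 1 other alternative (adjusted p = 0.128).

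Among 39 genes of NAD synthesis and use 1 rose and 3 fell, with a median log2 fold change of -0.06. Tdo2, which opens tryptophan for the route to NAD+, rose from 1237 ± 92.5 to 1599 ± 135 CPM (SD, n = 4 and 4) at 1340 mg/kg/d and from 1507 ± 218 to 1968 ± 308 CPM (SD, n = 3 and 3) at 2680 mg/kg/d, by 0.38 log2 units (SE 0.09, adjusted p = 0.0325). Qprt, which turns quinolinate into the NAD+ precursor, fell from 193 ± 17.3 to 152 ± 28.1 CPM (SD, n = 4 and 4) at 1340 mg/kg/d and from 207 ± 16.4 to 122 ± 20.5 CPM (SD, n = 3 and 3) at 2680 mg/kg/d, a log2 fold change of -0.53 (SE 0.12, adjusted p = 0.0197). Besides Nudt7, the third was Parp1, the DNA repair enzyme that consumes NAD+, with -0.40 log2 units (SE 0.11, adjusted p = 0.0477). Nampt, the enzyme that makes NMN, stood at 0.20 log2 units (SE 0.21, adjusted p = 0.609). Its direction was not shared, with -0.21 (SE 0.22) at 1340 mg/kg/d and 0.74 (SE 0.25) at 2680 mg/kg/d. Nmnat1, which uses NMN, stood at -0.01 log2 units (SE 0.11, adjusted p = 0.964). Nnmt, which methylates nicotinamide, stood at -0.17 log2 units (SE 0.31, adjusted p = 0.796). Macrod1, a hydrolase of ADP-ribose on proteins, was not called for both schedules together, at -1.52 log2 units (SE 0.52, adjusted p = 0.116). Qprt did not pass without water replicate 2 or NMN replicate 3 at 2680 mg/kg/d (adjusted p up to 0.0566). Calls in the list numbered 1 without NMN replicate 3 at 2680 mg/kg/d, and 2 without water replicate 2 or 4 or NMN replicate 2 or 3 at 1340 mg/kg/d, or water replicate 1, 2 or 3 or NMN replicate 2 at 2680 mg/kg/d, and 7 without NMN replicate 1 at 1340 mg/kg/d.

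No difference was detected in the aminotransferases whose serum activity reports liver injury. Gpt (alanine aminotransferase) stood at 361 ± 23.4 and 378 ± 49.5 CPM in water and NMN mice at 1340 mg/kg/d and at 348 ± 74.1 and 371 ± 72.1 CPM at 2680 mg/kg/d (SD), with a log2 fold change of 0.08 (SE 0.11, adjusted p = 0.724). Got1 (aspartate aminotransferase) had -0.18 log2 units (SE 0.16, adjusted p = 0.547). Of 21 genes of the urea cycle and amino acid breakdown 3 fell and none rose, with a median log2 fold change of -0.16. Ass1, the argininosuccinate synthase of the urea cycle, changed by -0.38 log2 units (SE 0.09, adjusted p = 0.0211). The ornithine aminotransferase Oat changed by -0.71 log2 units (SE 0.16, adjusted p = 0.0248). The number that passed was 1 without water replicate 2 or NMN replicate 3 at 2680 mg/kg/d.

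Of 20 genes of bile acid synthesis and transport 3 rose and 1 fell, with a median log2 fold change of 0.0058. Besides Abcc3, Abcb4, which moves phospholipid into bile, rose from 146 ± 11.3 to 201 ± 30.1 CPM (SD, n = 4 and 4) at 1340 mg/kg/d and from 155 ± 16.4 to 238 ± 14.2 CPM (SD, n = 3 and 3) at 2680 mg/kg/d, by 0.53 log2 units (SE 0.09, adjusted p = 0.00679). Cyp27a1, of the acidic pathway of bile acid synthesis, rose by 0.46 log2 units (SE 0.12, adjusted p = 0.0344). Slc10a1, which takes bile acids up from blood, changed by -0.56 log2 units (SE 0.16, adjusted p = 0.0492). Leaving out single libraries gave counts of 2 without NMN replicate 2 at 1340 mg/kg/d, or water replicate 1, 2 or 3 or NMN replicate 2 or 3 at 2680 mg/kg/d.

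Of 37 Cyp2 and Cyp3 enzymes and their receptors 2 rose and 4 fell. The median log2 fold change was -0.05, with 0.10 at 1340 mg/kg/d and -0.24 at 2680 mg/kg/d. Nr1i3 (CAR), a receptor for foreign compounds, rose by 0.90 log2 units (SE 0.20, adjusted p = 0.0206), and Cyp3a25 by 0.55 log2 units (SE 0.15, adjusted p = 0.0499), with NMN replicate 3 at 1340 mg/kg/d (383 CPM) under the water mice (424.9 to 495.8 CPM). Cyp2u1 changed by -1.19 log2 units (SE 0.22, adjusted p = 0.00987), Cyp2c55 by -0.96 log2 units (SE 0.22, adjusted p = 0.0244), Cyp2f2 by -0.45 log2 units (SE 0.11, adjusted p = 0.0344) and Cyp2a12 by -0.35 log2 units (SE 0.10, adjusted p = 0.0434). Nr1i3 shares exon positions with Tomm40l and Cyp2u1 with 4930534D22Rik. The count of calls was 1 without water replicate 1, 2 or 3 at 2680 mg/kg/d, and 2 without NMN replicate 3 at 2680 mg/kg/d, and 3 without water replicate 1 or 2 at 1340 mg/kg/d, or NMN replicate 2 at 2680 mg/kg/d, and 10 without water replicate 3 at 1340 mg/kg/d, and 12 without NMN replicate 1 at 1340 mg/kg/d.

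Of 28 genes of glutathione use and targets of NRF2, 4 rose and 2 fell, with a median log2 fold change of 0.18. That median was 0.022 at 1340 mg/kg/d and 0.39 at 2680 mg/kg/d, and ran from 0.085 to 0.22 with 1 library left out. Gsta2, a glutathione transferase of the alpha class, stood at 21.4, 16.6, 21.5 and 23.1 CPM with water and 33.1, 56.04, 32.99 and 25.3 CPM with NMN at 1340 mg/kg/d, and 30.2, 29.5 and 40.9 CPM with water and 123, 121 and 156 CPM with NMN at 2680 mg/kg/d. The NMN mice were higher within each schedule, most of all at 2680 mg/kg/d. It rose by 1.34 log2 units (SE 0.22, adjusted p = 0.00585); Gsta1, its near-identical copy, stood at 0.629 CPM on average and rose by 1.90 log2 units (SE 0.52, adjusted p = 0.045). At 1340 mg/kg/d Gsta1 was higher in NMN replicates 1 and 2 (0.514 and 1.32 CPM), while replicates 3 and 4 (0.188 and 0.146 CPM) lay under the water mice (0.196 to 0.233 CPM). Ephx1, an epoxide hydrolase, rose by 0.79 log2 units (SE 0.20, adjusted p = 0.0341) and Nqo1, a quinone reductase, by 0.71 log2 units (SE 0.20, adjusted p = 0.04996). The mu class transferases Gstm6 and Gstm2 fell, with log2 fold changes of -0.66 (SE 0.15, adjusted p = 0.0236) and -0.96 log2 units (SE 0.23, adjusted p = 0.0327). For Gstm6 this was -0.25 (SE 0.14) at 1340 mg/kg/d, where the groups overlapped, and -1.19 (SE 0.16) at 2680 mg/kg/d. Calls in the list numbered 1 without water replicate 1, 2 or 3 or NMN replicate 2 or 3 at 2680 mg/kg/d, and 2 without NMN replicate 2 at 1340 mg/kg/d, and 3 without water replicate 1 at 1340 mg/kg/d.

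Of 19 genes of amino acid and endoplasmic reticulum stress, 1 rose and none fell: Sesn2, which senses leucine, went from 5.21 ± 0.74 to 9.62 ± 1.32 CPM (SD, n = 4 and 4) at 1340 mg/kg/d and from 7.15 ± 0.861 to 10.6 ± 1.88 CPM (SD, n = 3 and 3) at 2680 mg/kg/d, by 0.75 log2 units (SE 0.14, adjusted p = 0.00927), and passed with each library left out. The chaperone Pdia4 stood at -0.64 log2 units (SE 0.25), and ran from -0.72 to -0.33 with 1 library left out. Of 16 p53 targets and DNA damage genes 2 rose and none fell. Gadd45b, a stress-induced growth arrest gene, went from 0.994 ± 0.913 to 4.13 ± 3.51 CPM (SD, n = 4 and 4) at 1340 mg/kg/d and from 0.412 ± 0.286 to 2.01 ± 0.809 CPM (SD, n = 3 and 3) at 2680 mg/kg/d, by 2.12 log2 units (SE 0.52, adjusted p = 0.0314). Gdf15, a stress hormone, stood at 5.97, 5.54, 3.02 and 5.09 CPM with water and 23.4, 14.1, 6.84 and 6.30 CPM with NMN at 1340 mg/kg/d, and 15.1, 9.13 and 6.13 CPM with water and 14.7, 22.1 and 15.7 CPM with NMN at 2680 mg/kg/d. The groups overlapped at 2680 mg/kg/d, and at 1340 mg/kg/d NMN replicates 1 and 2 were the highest, as they were for Gadd45b (4.11 and 9.08 CPM, against 2.07 and 1.24 CPM in replicates 3 and 4). It rose by 1.11 log2 units (SE 0.30, adjusted p = 0.0492). Those 2 livers also had the highest neutrophil markers, and without both of them Gadd45b stood at 1.52 log2 units (SE 0.56, adjusted p = 0.103) and Gdf15 at 0.62 log2 units (SE 0.22, adjusted p = 0.0943), while 1 other member of the list passed. The number that passed was 0 without water replicate 4 or NMN replicate 2 at 1340 mg/kg/d, or water replicate 2 or 3 or NMN replicate 2 or 3 at 2680 mg/kg/d, and 1 without water replicate 1 or 2 at 1340 mg/kg/d, or water replicate 1 or NMN replicate 1 at 2680 mg/kg/d.

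Of 17 genes of cell proliferation none passed by edgeR, while 1 had an unadjusted p under 0.05 (21.9% of all tested genes did) and DESeq2 called 1 (8.87% of all); the nucleotide synthesis genes Tyms and Rrm2 stood at -0.54 log2 units (SE 0.18) and -0.72 log2 units (SE 0.39). Of 16 genes of iron handling none passed by edgeR, 2 had an unadjusted p under 0.05 and DESeq2 called 2, beside the same 21.9% and 8.87%. Hamp2, a hepcidin gene with a close paralog, stood at -0.89 log2 units (SE 0.27), and Scara5, a receptor for ferritin, stood at 1.28 log2 units (SE 0.41) with an adjusted p of 0.0877. Leaving out single libraries gave counts of 1 without water replicate 1, 2 or 3 at 1340 mg/kg/d, or NMN replicate 3 at 2680 mg/kg/d. The share of reads outside exons differed between libraries, and with it as a covariate, an alternative chosen after the data were seen, 335 genes passed in all. The lists of fatty acid synthesis, NAD use and male-biased genes then held 5, 1 and 1 members that passed, all of them lower. In the glucose list the 3 that had fallen no longer passed and 1 other member rose, and among the Cyp2 and Cyp3 genes 1 rose and 2 fell. Of the female-biased genes 1 fell, and of the lipoproteins and lipases none passed. The lists of other PPAR-alpha targets and peroxisomal oxidation held 8 and 4.

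**Figure D4:**
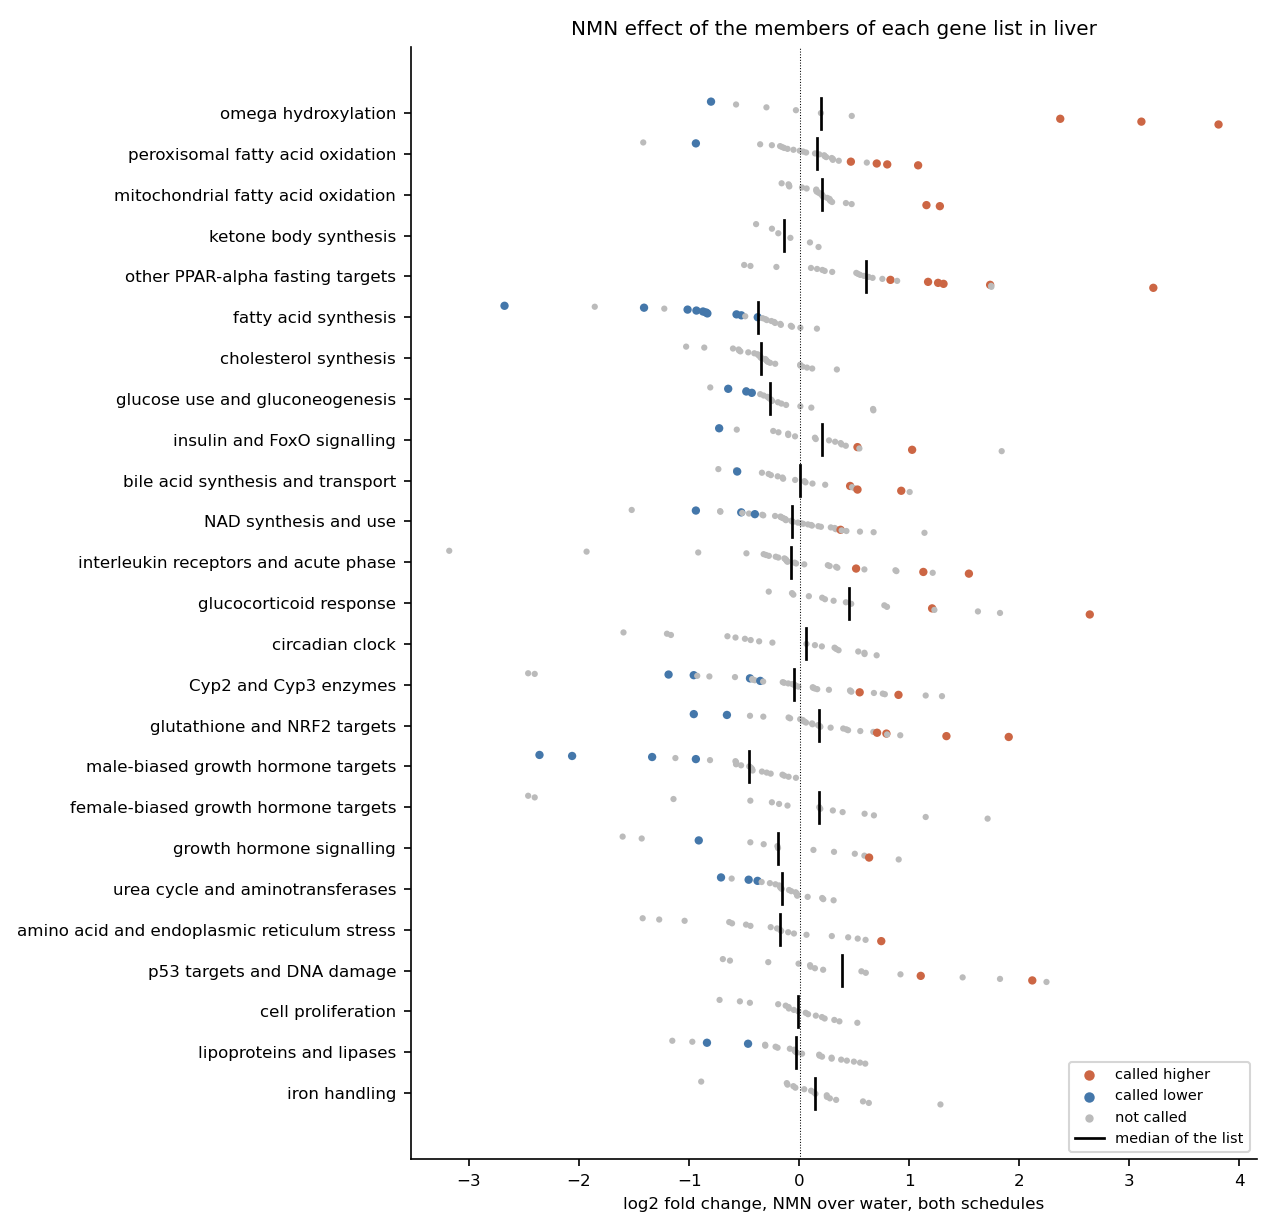
Log2 fold change of NMN over water across both schedules for each tested member of the 25 gene lists, with orange and blue points for members called higher and lower, grey points for the others, and a black bar at the median of each list. The dotted line marks the median of all tested genes (0.0059); in the list of fatty acid synthesis 10 points are blue and none is orange, and in the list of male-biased genes all 23 points lie below 0.

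Markers of the cell types of liver were read beside these groups, and their part in the results was not tested. Of 7 hepatocyte markers 2 fell, the transthyretin gene Ttr with -0.65 log2 units (SE 0.12, adjusted p = 0.0071) and Ahsg with -0.37 log2 units (SE 0.10, adjusted p = 0.0469). The summed hepatocyte markers differed between NMN and water by -1099 CPM at 1340 mg/kg/d and by -36939 CPM at 2680 mg/kg/d. All 7 endothelial markers had a log2 fold change above 0, and Oit3 rose by 0.68 log2 units (SE 0.15, adjusted p = 0.0203) and Lyve1 by 0.79 log2 units (SE 0.22, adjusted p = 0.04996); the sum of the 7 was higher with NMN by 33.8 CPM on average. All 9 Kupffer cell markers lay below 0 and none passed, and their sum differed by -39.2 CPM. Of 5 erythroid markers Alas2, the haem synthesis enzyme of red cells, fell by 1.08 log2 units (SE 0.21, adjusted p = 0.0125), and the 4 globin genes did not pass; Alas2 shares exon positions with Apex2. The pancreatic genes Cela3b, Cpa1, Pnlip and Prss1 had 0 counts in all 14 livers, while Cela2a stood at 0.457 CPM, beside the fall in Cela1. Of the 4 fat cell markers, Adipoq, Plin1 and Retn lay under 0.1 CPM on average, and the most abundant, Cfd (0.410 CPM), stood at 1.90 log2 units (SE 0.62, adjusted p = 0.0826), higher in both schedules. Their sum was 0.234 ± 0.191 CPM with water and 1.22 ± 0.719 CPM with NMN at 1340 mg/kg/d, and 0.204 ± 0.136 and 0.271 ± 0.196 CPM at 2680 mg/kg/d (SD), beside the rise in Plin4. The 4 neutrophil markers, of which S100a9 was the most abundant (1.33 CPM) and Ly6g lay under 0.1 CPM on average, summed to 11.7 and 9.01 CPM in NMN replicates 1 and 2 at 1340 mg/kg/d and to at most 1.91 CPM in the other 12 livers. Without those 2 livers, an alternative chosen after the data were seen, 1080 genes passed, 493 of the 573 among them. Glutathione and NRF2 targets then held 1 that rose and 4 that fell, Cyp2 and Cyp3 enzymes 1 and 9, NAD synthesis and use 3 and 4, and insulin and FoxO signalling 1 and 0.

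Between NMN and water, 17 properties of the libraries were compared in exact two-sided permutation tests within the schedules, which can give no p under 0.00143. None had an adjusted p under 0.05. The smallest was that of the summed erythroid markers, made up mostly of Alas2, with 119 ± 29.6 CPM in water and 81.8 ± 22.4 CPM in NMN mice at 1340 mg/kg/d and 124 ± 10.9 CPM and 58.6 ± 24.3 CPM at 2680 mg/kg/d (SD; exact permutation p = 0.00429, adjusted p = 0.0729). Of the 5 erythroid markers, 3 had a log2 fold change above 0 and 2 below, with a median of 0.0050. The sums of endothelial, adipocyte and hepatocyte markers had exact permutation p of 0.0429, 0.0314 and 0.0586, each with an adjusted p of 0.219. The share of reads outside exons was higher by 1.70 points (exact permutation p = 0.0729, adjusted p = 0.219), and the mitochondrial share by 0.797 points (exact permutation p = 0.116, adjusted p = 0.281).

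The difference of the effect between the schedules was tested in the 14 livers as an interaction. It passed for 10 of 13412 genes (0.0746%), of which 3 were among the 573 genes of the common effect, while 1154 had an unadjusted p under 0.05. The 3 had the same direction in both schedules and a larger change at 2680 mg/kg/d. They were the long non-coding RNA 1700028E10Rik (log2 fold changes of 1.23 at 1340 and 3.22 at 2680 mg/kg/d), Tmem86b, an enzyme that breaks down lysoplasmalogen (-0.63 and -2.25), and Lipc (-0.26 and -1.61). The first 2 share exon positions with other genes. The other 7 were not called for both schedules together, among them Macrod1, with -0.25 and -3.41. Without NMN replicate 4 at 1340 mg/kg/d 25 genes passed, and without NMN replicate 2 at 2680 mg/kg/d 19 did.

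Whether the effect differed between liver and kidney was tested over all 28 libraries. Since the labels do not tie livers to kidneys, the organs were treated as separate samples, although some may come from the same mouse. The NMN effect differed between the organs for 152 of 16674 tested genes (0.912%). Of the 573 genes called in liver 107 were among them, 104 of these with the larger change in liver. Since the 573 were chosen on the same liver libraries, this share favours genes that differ. The median size of the log2 fold change of the 573 genes was 0.67 in liver and 0.14 in kidney. That choice favours a larger size in liver as well. In kidney 55 of the 573 and 4 of the 107 had a mean under 1 CPM, where a kidney fold change rests on few reads. Liver RNA was present in the kidneys in turn, with Alb at 0.0927% to 0.162% of its liver level at 1340 mg/kg/d and 0.00801% to 0.0155% at 2680 mg/kg/d.

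Fbf1 had 1.47 log2 units (SE 0.20) in liver and -0.04 (SE 0.14) in kidney, and the adjusted p of the difference was 0.000613. Cyp4a31 had 3.11 log2 units (SE 0.41) and 0.17 (SE 0.26), and Slc23a1 -1.09 log2 units (SE 0.17) and 0.11 (SE 0.13), each with an adjusted p of 0.00083. Plin4, Il1r1, Thrsp and Acly also differed between the organs (adjusted p of 0.00673, 0.00121, 0.0356 and 0.0271). For Zbtb16 no difference was detected. It had 2.64 log2 units (SE 0.46) in liver and 2.36 (SE 0.62) in kidney, a difference of 0.27 (SE 0.86). Among the livers, the number of genes with an organ difference was 81 without water replicate 2 or 3 and 87 without NMN replicate 3 at 2680 mg/kg/d, and 310 without water replicate 3 and 449 without NMN replicate 1 at 1340 mg/kg/d. Among the kidneys of the 2680 mg/kg/d schedule it was 87 without water replicate 1, 91 without water replicate 3 and 74 without NMN replicate 3.

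**Figure D5:**
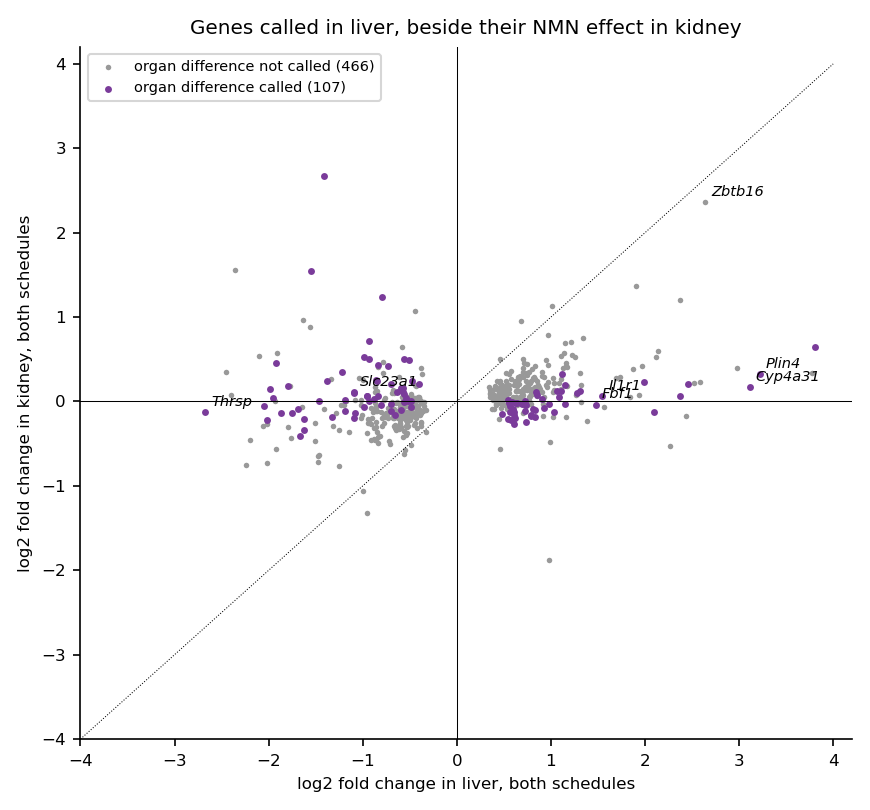
Log2 fold change of NMN over water in liver (horizontal) and kidney (vertical), each across both schedules, for the 573 genes called in liver; purple points are the 107 with a called organ difference and the dotted line marks equal change. Most points lie near 0 on the kidney axis, while Zbtb16 lies near the line; 55 of the points are genes under 1 CPM in kidney.

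The sequence before the start sites of these genes was searched for 4 motifs on both strands, in windows of 250 bases before to 50 after the RefSeq start (GRCm38.p6), which were at hand for 10187 of the tested genes. The direct repeat spaced by 1 base that PPAR-alpha is known to bind (searched as the letters AGGNCANAGGNCA) was found in 0.353% of the tested genes, in 1 of 210 genes that rose and in 2 of 232 that fell. The E-box CACGTG, which clock and carbohydrate response factors can bind, was in 11.7% of the tested genes, 14.8% of those that rose and 12.5% of those that fell. The sterol element TCACNCCAC was in 1.51%, 0.952% and 2.16%, and the paired half-sites of the glucocorticoid receptor in 0.383%, 0.476% and 0.431%. None of these motifs contains another. A match is a description of the letters only. The windows of 2 genes described above are shown as examples, up to the start site, with the match in capitals, an E-box for Tmem98 (chr11:80810116-80810365, plus strand) and the sterol element on the opposite strand for Ehhadh (chr16:21787835-21788084, minus strand, written 5′ to 3′ on the strand of the gene).
Tmem98: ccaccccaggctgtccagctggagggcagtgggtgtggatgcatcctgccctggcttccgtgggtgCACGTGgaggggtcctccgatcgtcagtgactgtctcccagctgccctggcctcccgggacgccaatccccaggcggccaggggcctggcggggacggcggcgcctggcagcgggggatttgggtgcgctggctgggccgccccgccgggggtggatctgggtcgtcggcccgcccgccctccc
Ehhadh: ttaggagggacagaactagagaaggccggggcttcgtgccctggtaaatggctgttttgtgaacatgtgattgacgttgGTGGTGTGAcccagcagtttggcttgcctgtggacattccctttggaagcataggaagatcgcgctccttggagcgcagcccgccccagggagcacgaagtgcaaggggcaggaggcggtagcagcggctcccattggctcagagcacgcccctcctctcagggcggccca
The E-box of Tmem98 begins 184 bases before its start site, and the sterol element of Ehhadh 171 bases before its own.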

How the data were processed

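Polyadenylated RNA of liver and kidney was sequenced by the authors, with alignment by STAR and counting by HTSeq-count in intersection-strict mode, ignoring strand. The deposited values are raw counts of reads per gene, not normalised, 1 file per library. The genome is named mm19 in the article, which could not be matched to a build, so no gene coordinates are given; sequences come from RefSeq windows on GRCm38.p6. Of 54446 gene IDs, 53229 were matched with their version and 1180 without it to symbols of GENCODE M21, and 37 were not matched. The summary lines of the count files (reads outside exons, ambiguous reads) were left out of library sizes and tests.

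The counts were fitted with edgeR 4.0.16 under R 4.3.3 (filterByExpr, TMM scaling, robust quasi-likelihood F test, Benjamini-Hochberg adjustment over all tested genes, threshold of 0.05), with the schedule as a block; the standard error is the absolute log2 fold change over the square root of F. The schedule and organ differences were tested as interactions, the latter over 28 libraries. DESeq2 1.42.0 was an alternative, beside other normalisations, filters, blocks and leaving out each library. The code was tested on simulated data.

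The gene lists, the members and the tests were chosen with earlier results of these data known. Genes were named by a rule: the 8 rising and 8 falling genes with the smallest p among called genes with at least 1 CPM, 1 direction and no overlap within either schedule, the 2 members of each list with the smallest p, 8 genes of NAD and liver function, and the 3 genes with the smallest p of the organ difference among the called genes. Replicates are separate mice of a group. Counting precision was high, at 12688324 reads or more per liver library. A few of the genes that this rule or the lists name are not reported here.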

Additional observations from a re-analysis of the deposited data

Results flagged for a closer look

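In 168 groups of 4 mice or libraries examined, 5 held a value far from the other 3 by Dixon's test, which chance gives in about 1 in 20 groups. Ugt2b38 stood at 47.6 CPM in water replicate 1 of the 1340 mg/kg/d schedule, against 9.13 to 14.8 CPM in the other 3 water mice. The same mouse had 7.83 CPM of Scara5, against 3.70 to 4.30 CPM, and 679.8 CPM of the chaperone Pdia4, against at most 248 CPM. Cyp2c69 stood at 4.73 CPM in water replicate 3 of that schedule, against 14.1 to 15.8 CPM. The summed stellate cell markers came to 155 CPM in NMN replicate 4 of that schedule, against 207 to 213 CPM in the other 3 NMN mice; this was also the library with 14.4% of its reads outside exons.

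The effect of NMN differed between the schedules in the interaction test for 2 of the genes named by the rule, besides 1700028E10Rik and Tmem86b, which were named for passing it. The log2 fold change at 2680 mg/kg/d minus that at 1340 mg/kg/d was -1.34 for Lipc and -3.17 for Macrod1. Macrod1 stood at 66.3, 82.4 and 61.8 CPM with water and 6.79, 7.37 and 5.55 CPM with NMN at 2680 mg/kg/d, and at 54.4, 56.2, 43.8 and 57.5 CPM and 61.4, 47.1, 37.6 and 32.3 CPM at 1340 mg/kg/d, where the groups overlapped.

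For 23 of the genes named by the rule the effect of NMN differed between liver and kidney in the interaction test over the 28 libraries. The difference, as the log2 fold change in liver minus that in kidney, was above 0 for 11 of them, Tmem98 (0.77), Tmc7 (1.75), Plin4 (2.88), Il1r1 (1.46), Fbf1 (1.5), Tacc2 (0.94), Megf9 (0.95), Cyp4a31 (2.94), Hnf4a (0.64), Slc22a5 (1.16) and Aldh3a2 (0.91). It was below 0 for the other 12, Ddo (-0.92), Cela1 (-1.28), Gstp3 (-3.12), Slc23a1 (-1.22), Map2k3 (-0.52), Cutal (-0.78), Thrsp (-2.57), Acly (-0.92), Cyp2u1 (-1.24), Nudt7 (-0.97), Cyp17a1 (-2.47) and Tyms (-0.85). Of these, Cyp17a1 and Tyms had not passed the test in liver alone. In kidney Gstp3 and Cyp17a1 had at most 15 and 13 reads in a library, means of 0.177 and 0.214 CPM, so their kidney fold changes and these differences rest on few reads.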

How the results depend on the processing

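With DESeq2 in place of edgeR, 1189 genes passed in place of 573 and included 571 of them, and with the schedules weighted equally 1144 passed. A fold change over 2 as well left 129, an unadjusted p under 0.05 gave 2939, no schedule block gave 187, and the share of reads outside exons as a covariate (chosen after seeing the data) gave 335, which included 273 of the 573. Leaving out 1 library gave 177 to 1118 genes, and leaving out both livers with the most neutrophil RNA (chosen after seeing the data) gave 1080. DESeq2's size factors, upper quartile scaling, no filter, no robust option and a minimum of 10 counts in each library gave 540, 555, 636, 553 and 590. Upper quartile scaling placed 39.1% of the calls above 0, against 48.0%. The 10 schedule differences became 106 with DESeq2, 71 with no filter on low counts and 49 with the covariate, and ran from 7 to 25 with 1 library left out. The 152 organ differences became 574 with DESeq2 and ran from 74 to 449. The cause of these shifts was not tested.

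The deviations of same-numbered NMN and water mice correlated weakly (r of 0.134, 0.0447, -0.0185 and -0.0131 at 1340 mg/kg/d and 0.0318, 0.0988 and 0.129 at 2680 mg/kg/d), and not every r was over 0.1, so the numbers were not taken to pair the mice. As a hint only, 5 of the 7 NMN mice, including all 3 at 2680 mg/kg/d, correlated best with the water mouse of their number, as did 3 of the 7 water mice with the NMN mouse of theirs. With a replicate block 472 genes passed (380 of the 573), 12 schedule differences and 132 organ differences.

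Of 1695 values of named genes under alternatives, 1516 kept their side of the threshold, 134 no longer passed and 45 newly passed. No gene that passed in the main fit changed direction. The direction of genes that had not passed was not counted. Nmnat1, for example, ran from -0.046 to 0.020 log2 units with 1 library left out. Of 625 list medians 6 moved by at least the spread, the SD between mice of a group in the list's mean log2 CPM. A change of sign within that spread was not counted. The median of the clock genes ran from -0.34 to 0.24 with 1 library left out. Depth limits genes of few reads, such as Gsta1 at 0.629 CPM.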

Other observations

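Among all called genes with at least 1 CPM, 19 changed by over 4-fold, 11 higher and 8 lower, and those outside the lists were chosen after their values were seen. Inhbb, a subunit of activin that hepatocytes secrete, stood at 0.31, 0.652, 0.549 and 1.92 CPM with water and 2.06, 5.41, 6.21 and 1.24 CPM with NMN at 1340 mg/kg/d, and 0.64, 0.264 and 0.971 CPM with water and 2.43, 3.24 and 2.78 CPM with NMN at 2680 mg/kg/d. Within 1340 mg/kg/d the groups overlapped, while at 2680 mg/kg/d they were apart. It rose by 2.13 log2 units (SE 0.42, adjusted p = 0.00984). Slc22a28, an organic anion transporter of a family with close paralogs, changed by -2.24 log2 units (SE 0.45, adjusted p = 0.0176). Acot11, a thioesterase that shares exon positions with Fam151a, stood at 6.36, 4.37, 4.32 and 3.63 CPM with water and 2.28, 2.4, 1.82 and 1.83 CPM with NMN at 1340 mg/kg/d, and 4.37, 5.33 and 4.01 CPM with water and 0, 0.647 and 0.49 CPM with NMN at 2680 mg/kg/d. Every NMN mouse lay under the water mice of its schedule. The log2 fold change was -2.05 (SE 0.44, adjusted p = 0.0182). The ion channel gene Hcn3, which shares exon positions with the pyruvate kinase gene Pklr, changed by -2.02 log2 units (SE 0.37, adjusted p = 0.00987), so its reads may in part be those of Pklr. Myom1, a protein of the muscle sarcomere that shares exon positions with Myl12a, rose by 2.45 log2 units (SE 0.54, adjusted p = 0.0181). Pdgfrl stood at 0.155, 0, 0.549 and 0.132 CPM with water and 0.294, 6.19, 1.13 and 0.439 CPM with NMN at 1340 mg/kg/d, and 0.533, 0.317 and 0.364 CPM with water and 1.88, 1.54 and 0.708 CPM with NMN at 2680 mg/kg/d. NMN replicate 2 at 1340 mg/kg/d lay far above the others and 2 NMN mice lay within the water mice. Its log2 fold change was 2.53 (SE 0.69, adjusted p = 0.0477), and 1.67 (SE 0.55, adjusted p = 0.103) without that mouse. B4galnt3, a glycosyltransferase that shares exon positions with D330020A13Rik, changed by -2.02 log2 units (SE 0.47, adjusted p = 0.0236).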
